A study of Mus musculus with 6 samples.

Results

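Genes of calcium handling, ion transport and electrical coupling in heart muscle were examined in tissue of mouse embryos at embryonic day 9.5 that lacked Hand2 in part of the heart lineage. The members were the 35 genes of a list of calcium store, exchanger, channel and gap junction genes, found by symbol among the 25888 genes of the table. All 35 were in the table. Of these, 24 had a mean of at least 1 FPKM (fragments per kilobase and per unit of library size) over the 6 libraries and were tested, and 11 lay below that level. The list was drawn up with earlier results of these data known, so a count over it is a description and carries no test of its own.

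RNA came from the anterior dorsal pericardial wall, which holds second heart field progenitors, dissected together with the outflow tract and pooled. The Hand2 cKO group was 3 libraries from Hand2flox/flox; Mef2c-AHF-Cre embryos, and the control group was 3 libraries from embryos whose genotype the labels give only as control. All were on the C57BL/6 strain. Mef2c-AHF-Cre is active in the anterior second heart field and its descendants, so other cells in the pool keep Hand2. How many embryos made up a pool, and whether pools of 1 group came from different litters, is not stated, and p-values therefore measure the spread between these 6 libraries, which may be technical. Hand2 was at 34.6, 22.2 and 17.9 FPKM in Hand2 cKO libraries 1 to 3, against 116, 64.3 and 81.7 FPKM in control libraries 1 to 3. The groups did not overlap (two-sided exact permutation p = 0.1, the smallest that 3 against 3 can give). Recovered reads per library ranged from 21863627 to 24939906 in Hand2 cKO and from 23367296 to 28468115 in controls. All 18 cardiomyocyte markers and all 12 markers of second heart field and pharyngeal mesoderm had a mean of at least 1 FPKM, and of 7 markers of skeletal muscle precursors none reached a mean of 1 FPKM. In the control 3 library, yolk sac and liver markers summed to 626 FPKM, against 2.99 to 6.43 FPKM in the other 5.

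In heart muscle, an action potential opens voltage-gated calcium channels, and the calcium that enters triggers release of more from the sarcoplasmic reticulum through ryanodine receptors. Relaxation follows as a calcium pump returns it to the store and an exchanger moves it out of the cell. Store proteins bind calcium inside the reticulum, potassium channels end the action potential, and gap junctions pass it from cell to cell. At the stage studied the heart tube already beats, while its sarcoplasmic reticulum is immature.

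Promoter sequences are shown for 5 genes on which the results below turn. They are the store gene Casq1 and the pump inhibitor gene Pln, with the largest decreases among the tested members, the exchanger gene Slc8a1, the channel subunit gene Cacna2d2, which was higher in Hand2 cKO, and Casq2, the cardiac relative of Casq1. They are RefSeq windows on GRCm38.p6 of 300 bases, from 250 before to 50 after the start site, read in the direction of the gene, and capitals mark motif letters found by search.
Casq1 (chr1:172219846-172220145, minus strand): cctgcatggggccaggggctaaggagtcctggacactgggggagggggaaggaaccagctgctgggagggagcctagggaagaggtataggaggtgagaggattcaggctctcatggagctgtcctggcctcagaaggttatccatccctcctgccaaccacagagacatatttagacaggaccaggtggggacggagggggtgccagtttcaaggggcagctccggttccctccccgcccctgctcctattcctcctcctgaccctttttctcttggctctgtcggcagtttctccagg
Pln (chr10:53337436-53337735, plus strand): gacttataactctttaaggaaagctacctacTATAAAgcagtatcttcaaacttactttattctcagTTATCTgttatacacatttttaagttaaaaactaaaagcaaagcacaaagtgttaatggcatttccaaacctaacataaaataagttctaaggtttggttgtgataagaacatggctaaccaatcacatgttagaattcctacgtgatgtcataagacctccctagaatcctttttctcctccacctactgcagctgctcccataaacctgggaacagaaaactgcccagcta
Slc8a1 (chr17:81738338-81738637, minus strand): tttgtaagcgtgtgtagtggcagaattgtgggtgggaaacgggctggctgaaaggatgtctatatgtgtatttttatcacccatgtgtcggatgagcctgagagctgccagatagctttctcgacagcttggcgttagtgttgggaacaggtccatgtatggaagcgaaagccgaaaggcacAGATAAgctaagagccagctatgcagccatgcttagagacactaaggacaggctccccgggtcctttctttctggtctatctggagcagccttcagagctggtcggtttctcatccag
Cacna2d2 (chr9:107399630-107399929, plus strand): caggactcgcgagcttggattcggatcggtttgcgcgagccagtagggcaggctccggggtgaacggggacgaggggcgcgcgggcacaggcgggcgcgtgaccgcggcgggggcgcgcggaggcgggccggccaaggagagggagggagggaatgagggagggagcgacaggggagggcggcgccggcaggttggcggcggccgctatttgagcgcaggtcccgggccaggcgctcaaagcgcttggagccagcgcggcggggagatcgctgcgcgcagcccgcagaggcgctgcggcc
Casq2 (chr3:102086165-102086464, plus strand): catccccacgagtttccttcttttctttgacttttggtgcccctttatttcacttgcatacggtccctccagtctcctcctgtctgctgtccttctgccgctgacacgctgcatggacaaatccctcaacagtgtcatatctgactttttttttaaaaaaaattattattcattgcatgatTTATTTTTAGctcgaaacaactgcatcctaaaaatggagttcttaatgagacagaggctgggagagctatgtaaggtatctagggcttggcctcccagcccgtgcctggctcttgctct
The motifs searched, on both strands, were the TATA box TATAAA, the letters AGATAA that GATA factors bind, the E-box form CATCTG that Hand factors bind, the MEF2 box and the CArG box of serum response factor. Pln held TATAAA at -219 and, on the other strand, AGATAA at -183. Slc8a1 held AGATAA at -68 on the gene's strand. Casq2 held a MEF2 box at -69, whose letters match on both strands. The Casq1 and Cacna2d2 windows held none of these motifs. RefSeq windows matched 26 of the 35 members, 31 windows in all. CATCTG was in 5 of the 31, from 4 members, and in 17.2% of all 32851 windows. AGATAA was in 3, against 11.2% of all windows, TATAAA in 2 against 13.6%, the MEF2 box in 2 against 3.19% and the CArG box in 0 against 1.63%. The general E-box CANNTG, which also covers CATCTG and is not capitalised, was in 22 of the 31 and in 72.3% of all windows.

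Several calcium store genes were lower in Hand2 cKO tissue, led by Pln at 37.7% and Casq1 at 49.6% of the control mean, while Cacna2d2 was at 224%. The calcium pump gene Atp2a2, the potassium channel gene Kcnh2 and the connexin gene Gjc1 were at 92.9%, 96.0% and 103% of the control mean and passed in no fit. No member passed when the libraries were taken as 2 groups of 3 (limma, Benjamini-Hochberg adjusted p under 0.05 over 12650 genes). Hand2, the targeted gene, did not pass in that fit either (limma adjusted p = 0.109). With the replicate number as a block, which sets each Hand2 cKO library against the control of the same number, 8 of the 24 tested members fell, 1 rose and 15 did not pass. The 8 that fell were Casq1, Pln, Srl, Hrc, Tmem38a, Jph2, Slc8a1 and S100a1.

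The share of all tested genes called lower was 0.15% without the block and 3.7% with it, and the share called higher was 0.0237% and 1.42%. Before adjustment, 5 members were lower and 1 was higher with a p under 0.05 and no block, against 4.32% and 2.6% of all genes. The groups did not overlap for 3 members that were lower (Casq1, Pln and Srl) and 2 that were higher (Cacna2d2 and Gjc1), against 6.85% and 5.44% of all genes tested. In 14 of the 24 members the Hand2 cKO library was the lower one at all 3 numbers, as in 25.1% of all genes. The median log2 fold change was -0.22 over the 24 members and -0.01 over all genes tested. Libraries that share a number deviated together, most at number 1 (correlation 0.73) and less at numbers 2 and 3 (0.44 each). Hand2 cKO 3 also correlated at 0.31 with control 2. What the numbers stand for is not given, and every call with the block depends on this pairing. The block without both libraries numbered 2 called 2 members lower (Casq1 and Pln), without those numbered 1 it called 6 (also Slc8a1, Srl, Ryr2 and Atp1b1), and without those numbered 3 it called 4 (Casq1, Pln, Hrc and S100a1). Over all genes, in that order, these fits called 229 of 12635, 246 of 12665 and 210 of 12632 lower. Array weights without a block called 5 members lower (Casq1, Pln, Slc8a1, Srl and Cacna1c), where 2.76% of all genes were called lower, and none higher.

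**Figure D1:**
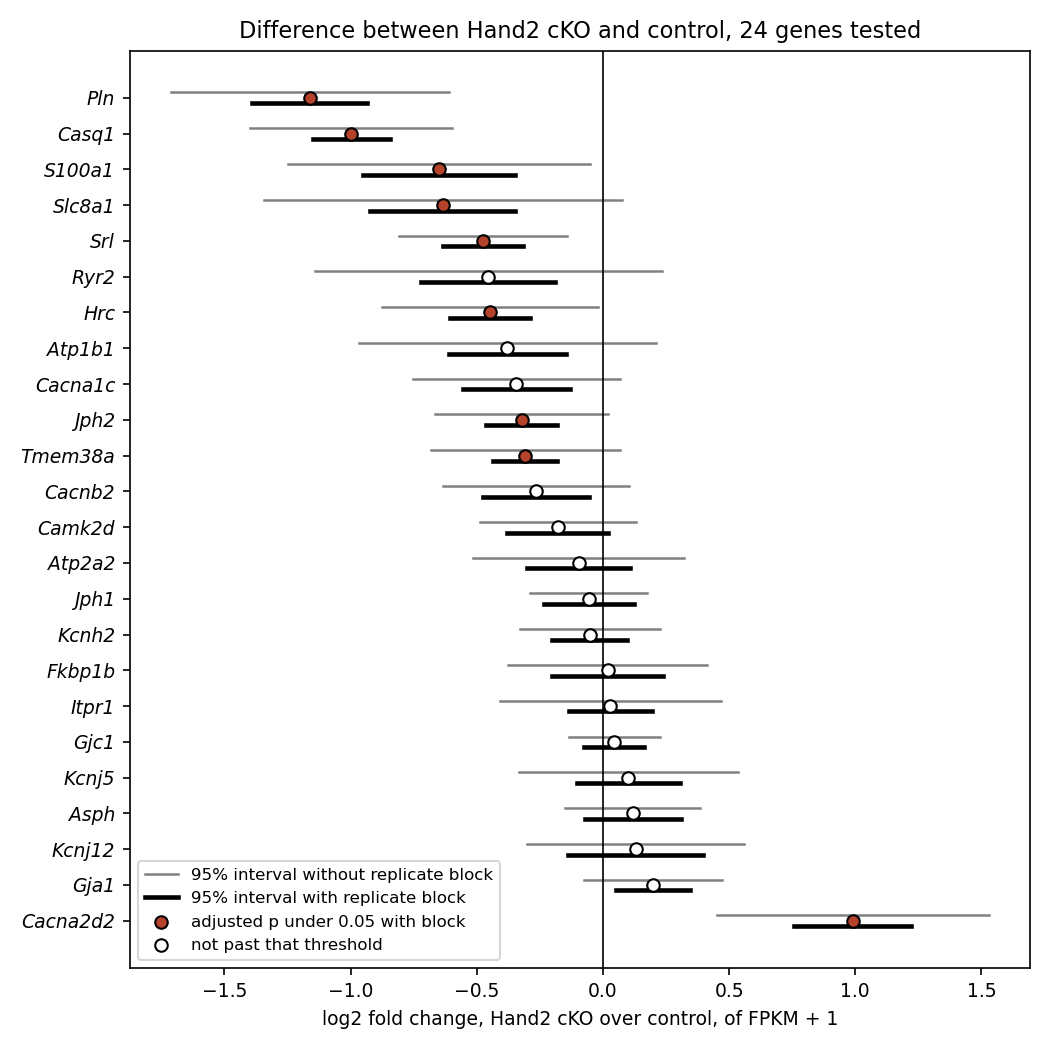
Log2 fold change (Hand2 cKO over control, log2(FPKM + 1)) of the 24 tested genes, with 95% intervals without the replicate block (thin grey) and with it (thick black); filled points passed with the block. Pln and Casq1 lie farthest to the left, Cacna2d2 alone far to the right, and the 15 open points did not pass.

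Most markers of heart muscle were lower with the block as well. The summed FPKM of the 18 cardiomyocyte markers was 6559, 4328 and 5425 in Hand2 cKO libraries 1 to 3, against 10241, 6401 and 8377 in control libraries 1 to 3. Actc1 and Myl7 had the highest FPKM of the 18 and weigh most in this sum. Of the 18, 13 fell with the block and none passed without it, and the median log2 fold change of the 18 was -0.61. Those that did not pass with the block were Ttn (-0.34), Tnni3 (-0.17), Myh6 (-0.10), Nkx2-5 (-0.09) and Myl2 (-0.03). The 8 smooth muscle markers summed to 1132 to 1418 FPKM in Hand2 cKO and 1672 to 2489 FPKM in controls, and 6 of the 7 tested fell with the block. The 10 endothelial and endocardial markers summed to 115.8 to 134.9 FPKM in Hand2 cKO and 146.7 to 175.2 FPKM in controls, and 5 of them fell with the block. Red cell markers spanned 3509 to 5119 FPKM in Hand2 cKO and 3366 to 8012 FPKM in controls, with no call. Neural crest markers summed to a mean of 33.2 FPKM in Hand2 cKO and 29.7 FPKM in controls, with 1 of 6 tested called higher with the block. Neural markers summed to 24.6 to 37.0 FPKM in Hand2 cKO and 20.6 to 30.2 FPKM in controls, with 1 of 2 tested called higher. The second heart field list had 3 members lower with the block, Isl1, Wnt5a and Hand2, the last being the targeted gene itself. It had 4 higher with the block (Tbx1, Six2, Eya1 and Tcf21) and a median of 0.21. Without the block 0 of this list were lower and 1 was higher. In pooled tissue, fewer cells of a type and less RNA per cell cannot be told apart, and the part these markers have in the members' differences was not tested. Set against the cardiomyocyte marker median, 4 tested members had a lower log2 fold change (Pln, Casq1, S100a1 and Slc8a1) and 20 a higher one.

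**Figure D2:**
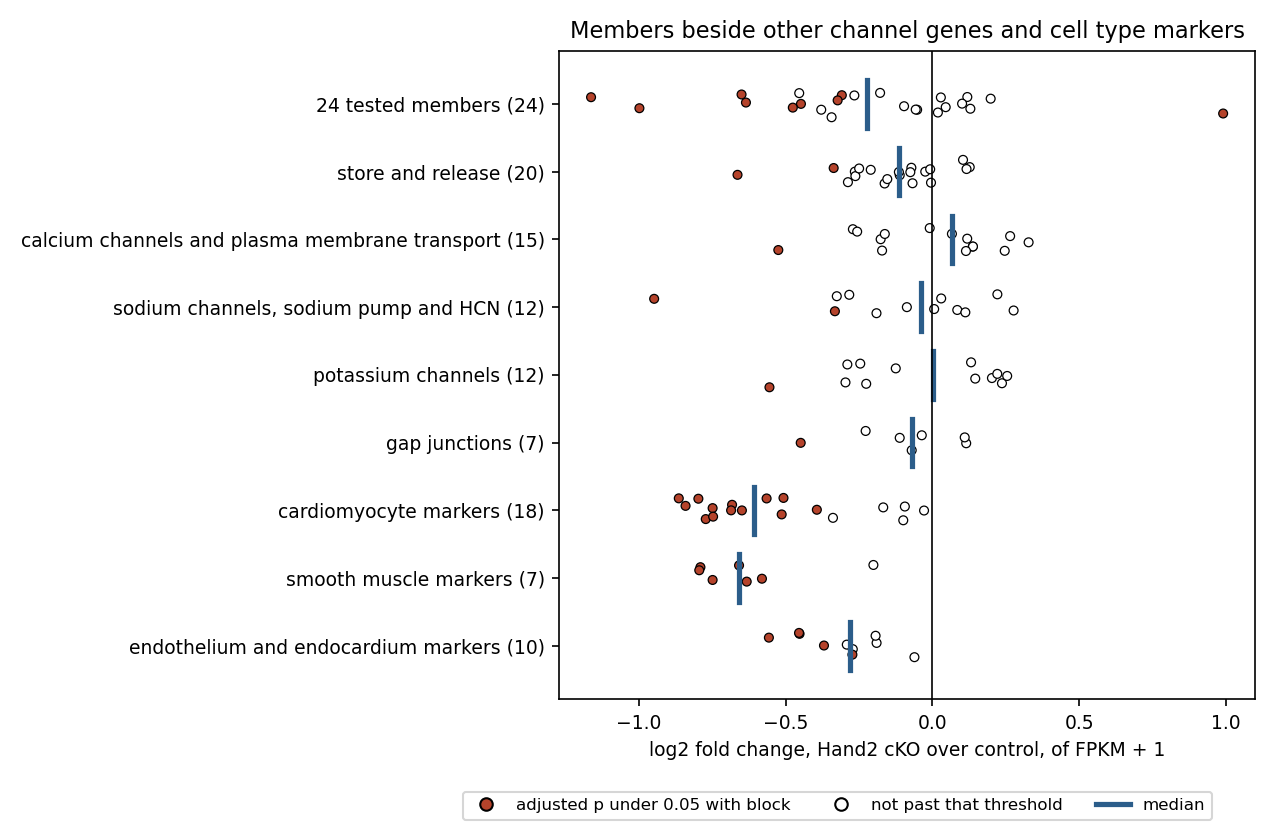
Log2 fold change (Hand2 cKO over control, log2(FPKM + 1)) of each tested gene, for the 24 members, the 5 lists of related genes and 3 marker lists; numbers in brackets are genes, filled points passed with the block and bars are medians. The members spread from Pln at -1.16 to Cacna2d2 at 0.99, while the cardiomyocyte markers centre on -0.61.

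Casq1, Srl and Hrc, genes of calcium-binding store proteins, fell with the block, as did S100a1, a calcium sensor gene. Casq1, on chromosome 1 from 172209894 to 172219868 (GRCm38), encodes the calsequestrin best known from skeletal muscle. It was at 34.4, 22.7 and 28.3 FPKM in Hand2 cKO libraries 1 to 3, against 63.3, 49.0 and 59.7 FPKM in control libraries 1 to 3. Every Hand2 cKO value lay below every control value, and the Hand2 cKO mean was 49.6% of the control mean. The difference on the log2 scale was -0.998 (SE 0.17 without the block and 0.06 with it), with a limma adjusted p of 0.129 without the block, 0.00247 with it and 1.76e-05 to 0.544 over the 20 alternative settings. Casq2, the calsequestrin of adult heart muscle, was at only 0.35, 0.15 and 0.214 FPKM in Hand2 cKO libraries 1 to 3, against 0.832, 0.459 and 0.475 FPKM in control libraries 1 to 3. These are 22, 11 and 16 reads in Hand2 cKO and 53, 39 and 35 reads in controls. The groups did not overlap, and Casq2 was under the level for testing in the main comparison. Per length, Casq1 exceeded Casq2 by 127 ± 26.7 times in Hand2 cKO and by 103 ± 25.1 times in controls (SD, n = 3 each, two-sided exact permutation p = 0.4).

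Srl encodes sarcalumenin, a calcium-binding glycoprotein of the reticulum. It was at 10.1, 7.91 and 11.2 FPKM in Hand2 cKO libraries 1 to 3, against 13.2, 12.6 and 15.8 FPKM in control libraries 1 to 3, with no overlap. Its log2 fold change was -0.48 (SE 0.14 without the block and 0.06 with it, limma adjusted p = 0.44 without the block, 0.0194 with it and 0.00138 to 1.00 over 20 alternatives). Hrc, the gene of the histidine-rich calcium-binding protein, was at 24.1, 15.6 and 20.5 FPKM in Hand2 cKO libraries 1 to 3, against 32.9, 23.9 and 25.9 FPKM in control libraries 1 to 3. The Hand2 cKO 1 value lay just above the control 2 value, so the groups overlapped, although each Hand2 cKO library was below the control of its number. For Hrc the log2 fold change was -0.45 (SE 0.18 and 0.06, limma adjusted p = 0.686 without the block, 0.022 with it and 0.00262 to 1.00 over 20 alternatives). S100a1, a calcium sensor that acts on the pump and the release channel, was at 9.16, 5.77 and 6.96 FPKM in Hand2 cKO libraries 1 to 3, against 13.9, 7.79 and 15.1 FPKM in control libraries 1 to 3. Control 2 was low for this gene and lay within the Hand2 cKO range. For S100a1 the log2 fold change was -0.65 (SE 0.25 and 0.12, limma adjusted p = 0.665 without the block, 0.0446 with it and 0.0128 to 1.00 over 20 alternatives).

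Of the calcium pump and its inhibitors, Pln fell with the block and the pump gene itself was called in no fit. Atp2a2, the calcium pump of the cardiac reticulum, had the highest level of all members. It was at 104, 100.3 and 130 FPKM in Hand2 cKO libraries 1 to 3, against 96.3, 121 and 142 FPKM in control libraries 1 to 3. The groups overlapped, and the log2 fold change of -0.10 had a 95% interval of -0.30 to 0.11 with the block and -0.51 to 0.32 without it. Without control 3, the library with the yolk sac and liver markers, it was 0.034. Pln, on chromosome 10 from 53337667 to 53345987 (GRCm38), encodes phospholamban, the small membrane protein that restrains this pump. It was at 3.93, 1.89 and 2.76 FPKM in Hand2 cKO libraries 1 to 3, against 8.47, 5.46 and 8.80 FPKM in control libraries 1 to 3. The groups did not overlap, and the Hand2 cKO mean was 37.7% of the control mean. Its log2 fold change was -1.16 (SE 0.23 without the block and 0.09 with it, limma adjusted p = 0.208 without the block, 0.00481 with it and 0.000124 to 0.722 over 20 alternatives).

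Pln amounted to 3.77%, 1.88% and 2.13% of the FPKM of Atp2a2 in Hand2 cKO libraries 1 to 3, against 8.80%, 4.51% and 6.19% in control libraries 1 to 3. All 3 Hand2 cKO shares were below all 3 control shares (two-sided exact permutation p = 0.1, the smallest possible). This pair was chosen after the values were seen. Sln, the gene of sarcolipin, the pump inhibitor of atrial muscle, was near 0 with 9, 0 and 6 reads in Hand2 cKO libraries 1 to 3 and 7, 10 and 2 reads in control libraries 1 to 3. The 0 allows up to 0.218 FPKM by counting error (3 reads at the recovered length, which is not that of the annotation), and a difference was not detectable at this depth.

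**Figure D3:**
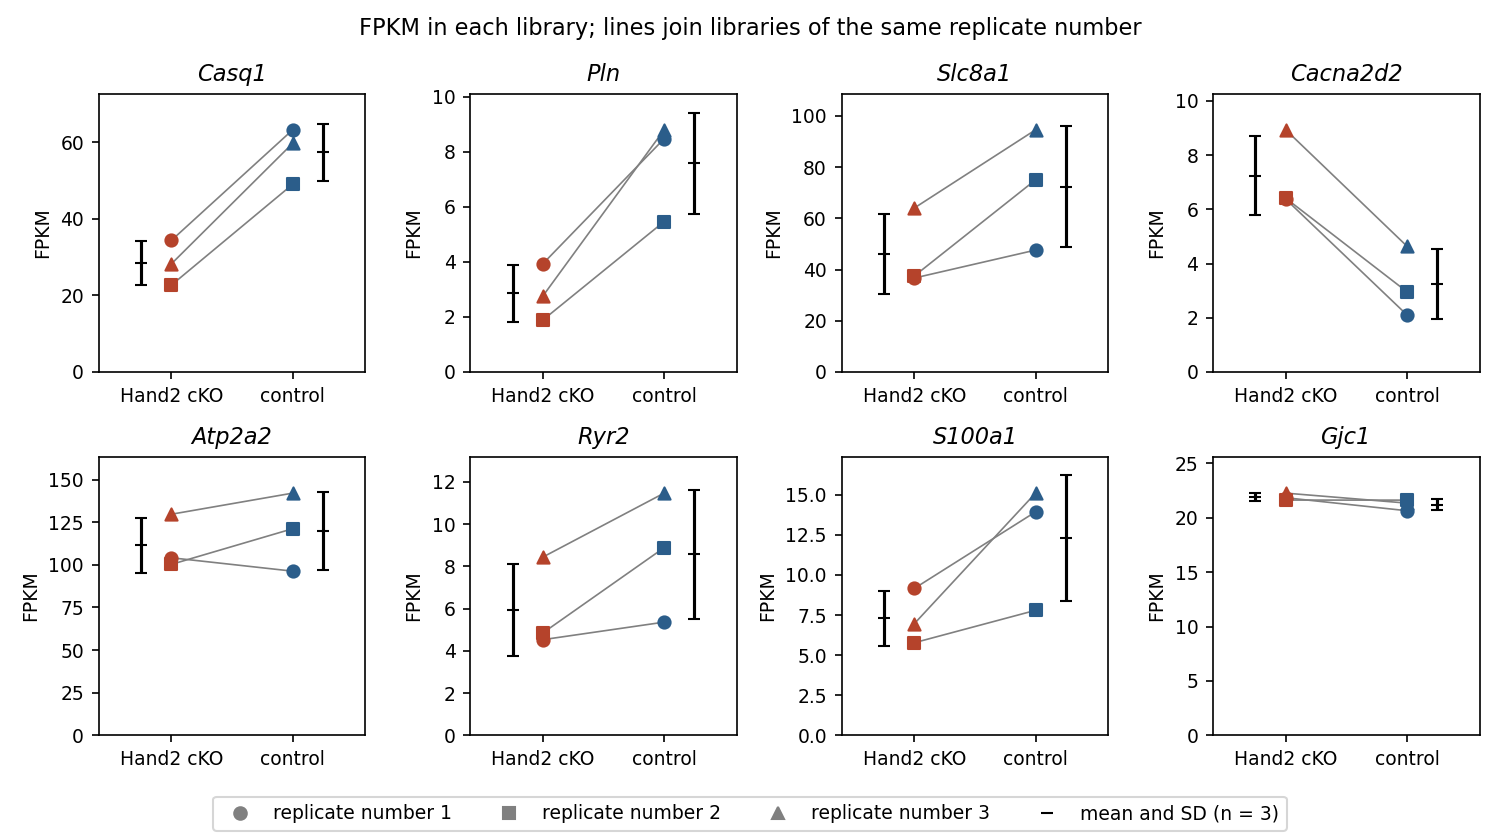
FPKM in each library for 8 of the genes, Hand2 cKO on the left and control on the right of each panel, with mean and SD (n = 3) beside the points and lines joining libraries of the same number. Casq1, Pln and Cacna2d2 separate the groups, Slc8a1, Ryr2 and S100a1 are lower along all 3 lines although the groups overlap, and Atp2a2 does not part them; the values of Gjc1 lie within 20.6 to 22.3 FPKM.

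Around the release channel, Jph2 and Tmem38a fell with the block, while Ryr2 itself did not pass in that fit but was called lower in some alternatives. Ryr2, the cardiac ryanodine receptor, was at 4.53, 4.85 and 8.44 FPKM in Hand2 cKO libraries 1 to 3, against 5.36, 8.88 and 11.5 FPKM in control libraries 1 to 3. The groups overlapped, since Hand2 cKO 3 exceeded control 1, but each Hand2 cKO library was below the control of its number. The log2 fold change of -0.45 (SE 0.29 and 0.11) did not pass with or without the block (limma adjusted p = 0.901 without the block, 0.0773 with it and 0.00904 to 1.00 over 20 alternatives). Both voom fits with the block called Ryr2 lower, as did the block without both libraries numbered 1. Jph2, which tethers the reticulum to the cell membrane in heart muscle, was at 63.1, 57.3 and 70.6 FPKM in Hand2 cKO libraries 1 to 3, against 83.4, 66.8 and 90.6 FPKM in control libraries 1 to 3. Its log2 fold change was -0.32 (SE 0.15 and 0.06, limma adjusted p = 0.769 without the block, 0.0384 with it and 0.00712 to 1.00 over 20 alternatives). Tmem38a, a potassium channel of the reticulum that balances charge during release, was at 11.1, 7.58 and 8.79 FPKM in Hand2 cKO libraries 1 to 3, against 13.4, 9.76 and 11.5 FPKM in control libraries 1 to 3. The groups overlapped for both genes, and the control 2 library was the lowest control for each. For Tmem38a the log2 fold change was -0.31 (SE 0.16 and 0.05, limma adjusted p = 0.831 without the block, 0.0328 with it and 0.0213 to 1.00 over 20 alternatives).

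The other genes of this group did not pass in limma on FPKM, with or without the block. Jph1, the junctophilin best known from skeletal muscle, averaged 1.97 ± 0.123 FPKM in Hand2 cKO and 2.10 ± 0.214 FPKM in controls (SD, n = 3 each). Fkbp1b, which encodes a binding protein of the ryanodine receptor, averaged 6.08 ± 1.08 FPKM in Hand2 cKO and 6.01 ± 1.31 FPKM in controls. Camk2d, the main calcium/calmodulin-dependent kinase gene of heart, averaged 1.51 ± 0.231 FPKM in Hand2 cKO and 1.85 ± 0.363 FPKM in controls. The 95% intervals with the block were -0.23 to 0.12 for Jph1, -0.20 to 0.24 for Fkbp1b and -0.38 to 0.02 for Camk2d. Both voom fits with the block called Camk2d lower (limma adjusted p 0.0322 to 1.00 over 19 alternatives). Asph, from which junctin and junctate are made besides a hydroxylase, averaged 4.98 ± 0.408 FPKM in Hand2 cKO and 4.52 ± 0.627 FPKM in controls. Itpr1, the inositol trisphosphate receptor found in many cell types, averaged 5.09 ± 1.09 FPKM in Hand2 cKO and 4.97 ± 1.10 FPKM in controls. Trdn, the gene of triadin, which links calsequestrin to the release channel, was under the level for testing. It was at 0.434, 0.464 and 0.486 FPKM in Hand2 cKO libraries 1 to 3, against 0.543, 0.692 and 1.21 FPKM in control libraries 1 to 3, without overlap.

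Among genes of calcium entry and exit at the cell membrane, Slc8a1 fell and Cacna2d2 rose with the block. Slc8a1, on chromosome 17 from 81373105 to 81738377 (GRCm38), encodes the sodium-calcium exchanger of the heart cell membrane, which mouse embryos need for a normal heartbeat. It was at 36.7, 37.5 and 64.0 FPKM in Hand2 cKO libraries 1 to 3, against 47.6, 75.0 and 94.5 FPKM in control libraries 1 to 3. The groups overlapped, since Hand2 cKO 3 exceeded control 1, but at each number the Hand2 cKO library was lower. The log2 fold change was -0.64 (SE 0.30 and 0.12, limma adjusted p = 0.79 without the block, 0.0426 with it and 0.00288 to 1.00 over 20 alternatives). Relative to Atp2a2, Slc8a1 was at 0.352, 0.374 and 0.493 of its FPKM in Hand2 cKO libraries 1 to 3, against 0.494, 0.619 and 0.665 in control libraries 1 to 3. The groups did not overlap in this ratio, which was chosen after the values were seen (two-sided exact permutation p = 0.1).

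Subunits of the voltage-gated calcium channel differed among themselves. Cacna1c, the pore of the cardiac L-type channel, was at 2.83, 3.00 and 3.86 FPKM in Hand2 cKO libraries 1 to 3, against 3.21, 4.68 and 5.36 FPKM in control libraries 1 to 3. Cacnb2, its intracellular beta subunit, averaged 1.67 ± 0.44 FPKM in Hand2 cKO and 2.21 ± 0.437 FPKM in controls (SD, n = 3 each). Both were lower at all 3 numbers with overlapping groups, and neither passed in limma on FPKM, with or without the block. Array weights called Cacna1c lower, and both voom fits with the block called both genes lower. The limma adjusted p with the block was 0.087 for Cacna1c (0.00841 to 1.00 over 19 alternatives) and 0.142 for Cacnb2 (0.0193 to 1.00 over 19). Cacna2d2, on chromosome 9 from 107399612 to 107529343 (GRCm38), encodes an extracellular alpha2delta subunit that promotes channel delivery to the membrane. It was at 6.38, 6.41 and 8.93 FPKM in Hand2 cKO libraries 1 to 3, against 2.10, 2.96 and 4.64 FPKM in control libraries 1 to 3. All Hand2 cKO values lay above all control values, and the Hand2 cKO mean was 224% of the control mean. The log2 fold change was 0.99 (SE 0.23 without the block and 0.09 with it, limma adjusted p = 0.314 without the block, 0.0076 with it and 0.000137 to 0.789 over 20 alternatives). Dropping both libraries of number 1, of number 2 or of number 3 left it called higher with the block.

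Per length, Cacna2d2 was at 2.25, 2.14 and 2.31 times Cacna1c in Hand2 cKO libraries 1 to 3, against 0.656, 0.632 and 0.865 times in control libraries 1 to 3 (two-sided exact permutation p = 0.1, pair chosen after the values were seen). By FPKM, the accessory subunit gene was thus below Cacna1c in every control library and above it in every Hand2 cKO library. That order depends on the lengths used (21191 bases for Cacna1c and 7947 for Cacna2d2). By recovered reads, Cacna2d2 was below Cacna1c in all 6 libraries. Its relative Cacna2d1, the alpha2delta gene of adult heart, averaged 1.11 ± 0.124 FPKM in Hand2 cKO and 1.53 ± 0.206 FPKM in controls (SD, n = 3 each) and passed in neither fit (limma adjusted p = 0.734 without the block, 0.171 with it and 0.0156 to 1.00 over 19 alternatives).

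Atp1b1, the beta subunit of the sodium pump that sets the gradient used by the exchanger, was at 37.8, 25.1 and 44.5 FPKM in Hand2 cKO libraries 1 to 3, against 40.9, 38.1 and 61.0 FPKM in control libraries 1 to 3. It was lower at each number and did not pass with or without the block (limma adjusted p = 0.914 without the block, 0.0866 with it and 0.0169 to 1.00 over 20 alternatives). Both voom fits with the block called Atp1b1 lower, as did the block without both libraries numbered 1. Scn4b, a sodium channel beta subunit, was under the level for testing, at 0.856 to 1.13 FPKM in Hand2 cKO and 0.705 to 0.858 FPKM in controls.

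Potassium channel genes were mostly low or similar in both groups. Kcnh2, the channel of the rapid delayed rectifier current, was at 30.2, 26.5 and 29.0 FPKM in Hand2 cKO libraries 1 to 3, against 30.9, 25.6 and 32.9 FPKM in control libraries 1 to 3. The 95% interval of its log2 fold change was -0.20 to 0.10 with the block and -0.33 to 0.23 without it. Kcnj5 and Kcnj3 encode the channel pair through which acetylcholine slows the heart, and their levels were far apart. Kcnj5 was at 8.71, 7.48 and 12.0 FPKM in Hand2 cKO libraries 1 to 3, against 7.25, 8.28 and 10.3 FPKM in control libraries 1 to 3, with overlapping groups and an interval of -0.10 to 0.31 with the block. Kcnj3 was near 0 with 25, 14 and 23 reads in Hand2 cKO libraries 1 to 3 and 6, 6 and 11 reads in control libraries 1 to 3. Its groups did not overlap, at 0.10 to 0.209 FPKM in Hand2 cKO and 0.037 to 0.0784 FPKM in controls, and it was not tested. Per length Kcnj5 exceeded Kcnj3 by 41.8 to 74.5 times in Hand2 cKO and by 132 to 223 times in controls.

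Of the inward rectifiers that hold the resting potential, Kcnj2 was at 0.592, 0.55 and 0.558 FPKM in Hand2 cKO libraries 1 to 3, against 0.971, 0.893 and 0.894 FPKM in control libraries 1 to 3. These were 74, 80 and 83 reads in Hand2 cKO and 123, 151 and 131 reads in controls, with no overlap and little spread within groups. Kcnj12 averaged 1.31 ± 0.385 FPKM in Hand2 cKO and 1.11 ± 0.409 FPKM in controls (SD, n = 3 each) and did not pass. Kcnq1, the channel of the slow delayed rectifier, was at 0.375 to 0.723 FPKM in Hand2 cKO and 0.684 to 0.972 FPKM in controls. The transient outward channel genes were near 0. Kcnd2 was at 0.0169 to 0.0852 FPKM in Hand2 cKO and 0 to 0.0289 FPKM in controls, where the 0 in control 1 allows up to 0.025 FPKM by counting error (3 reads). Kcnd3 was at 0.118 to 0.244 FPKM in Hand2 cKO and 0.139 to 0.182 FPKM in controls, and their subunit gene Kcnip2 was at 0.288 to 0.389 FPKM in Hand2 cKO and 0.289 to 0.371 FPKM in controls.

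The 3 connexin genes differed mainly in level. Gja1, the main gap junction gene of working ventricle and also made by many non-muscle cells, was at 44.3, 48.0 and 43.8 FPKM in Hand2 cKO libraries 1 to 3, against 37.2, 45.6 and 35.9 FPKM in control libraries 1 to 3. It was higher in Hand2 cKO at each number but did not pass (log2 fold change 0.20, limma adjusted p = 0.872 without the block, 0.126 with it and 0.0678 to 1.00 over 20 alternatives). Gjc1, the connexin gene of the early heart tube, was at 21.8, 21.6 and 22.3 FPKM in Hand2 cKO libraries 1 to 3, against 20.6, 21.6 and 21.4 FPKM in control libraries 1 to 3. The lowest Hand2 cKO value and the highest control value were equal to 3 digits, so the groups were apart by less than the rounding, and the log2 fold change of 0.05 had a 95% interval of -0.07 to 0.16 with the block. Gja3, best known from the eye lens, was near 0 at 0.121 to 0.213 FPKM in Hand2 cKO and 0.194 to 0.528 FPKM in controls.

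**Figure D4:**
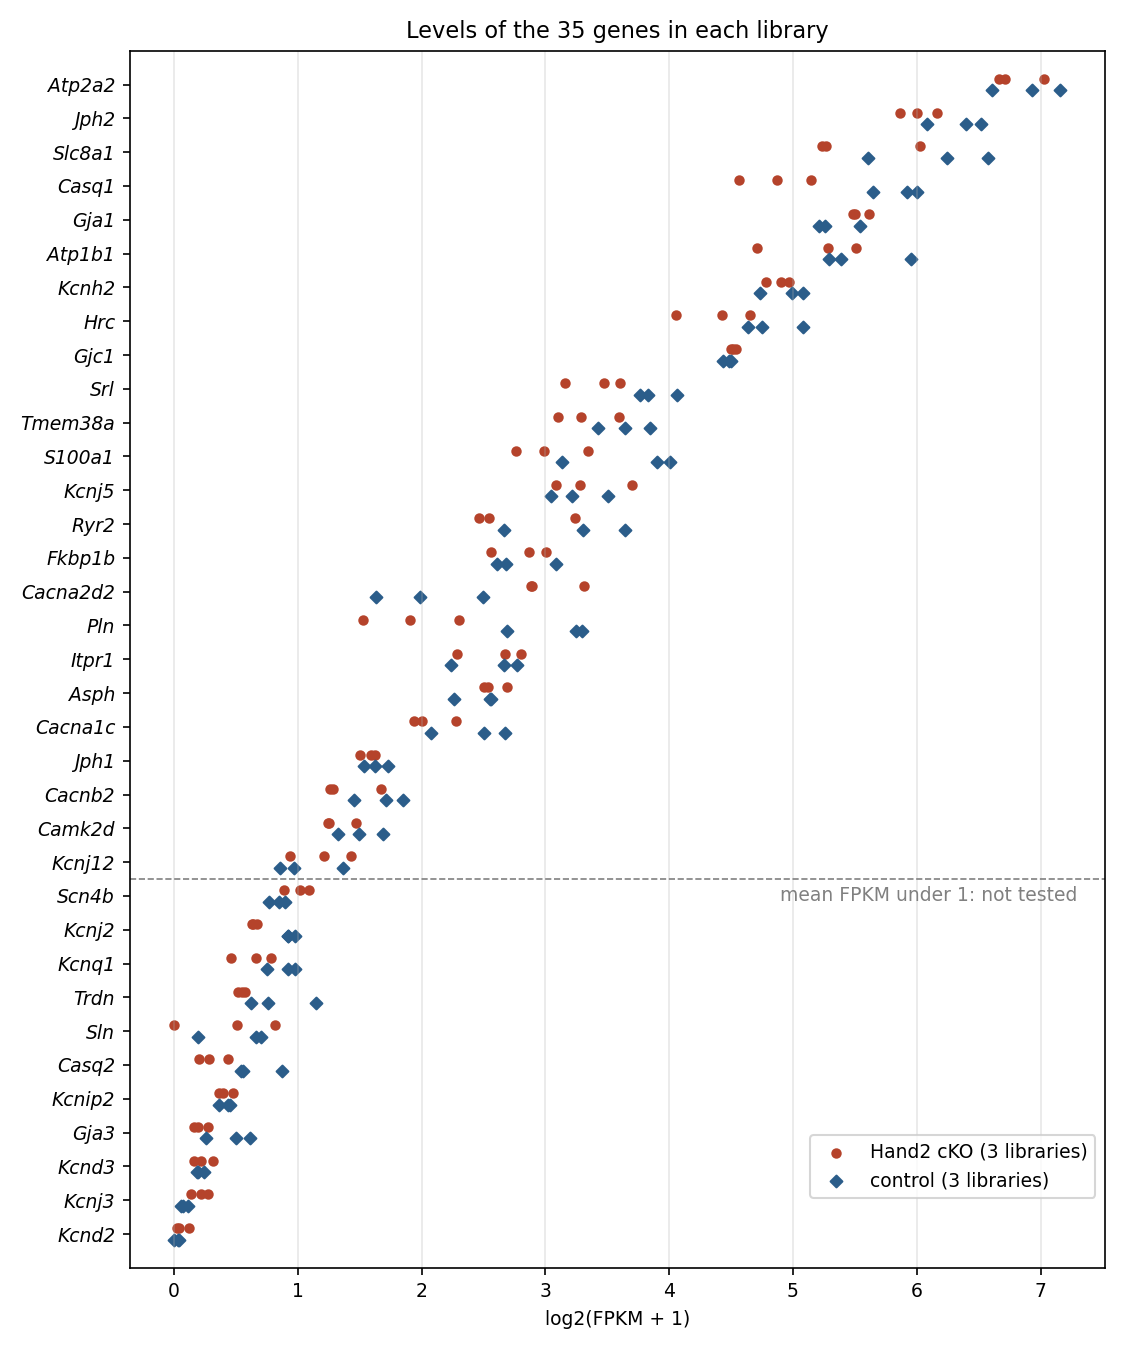
Level of all 35 genes as log2(FPKM + 1), with 3 Hand2 cKO libraries (circles, upper) and 3 control libraries (diamonds, lower) per gene, ordered by mean; the dashed line parts the 24 tested from the 11 not tested. Atp2a2 is highest and Kcnd2 lowest, and Casq1, Pln and Cacna2d2 are the tested genes whose groups lie farthest apart.

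The 11 members under 1 FPKM were Casq2, Sln, Trdn, Scn4b, Kcnj2, Kcnj3, Kcnq1, Kcnd2, Kcnd3, Kcnip2 and Gja3. In a fit to recovered reads that was added after the data were seen (voom with the replicate block, genes with a mean of at least 20 reads), 31 members could be tested, and 16 were lower and 1 higher. Of all genes, 6.33% were lower and 3.59% higher in that fit. Casq2 (log2 fold change -1.29, SE 0.25, limma voom adjusted p = 0.00979), Kcnj2 (-0.69, SE 0.15, 0.0152) and Trdn (-0.81, SE 0.22, 0.042) were among the 16. Kcnq1 (-0.62, SE 0.18, 0.0593) was not. Without a filter, limma on FPKM called none of these 4 (adjusted p 0.582 for Casq2, 0.419 for Kcnj2, 0.774 for Trdn and 0.767 for Kcnq1). Trdn was highest in control 3, the library with the yolk sac and liver markers (1.21 FPKM). Controls 1 and 2 were at 0.543 and 0.692 FPKM. The recovered length of Trdn is not that of the annotation, so its reads may lack a common factor.

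Member values also varied with the replicate number along gene length, as did those of all genes. Of the 14 tested members with a recovered length over 4000 bases, 7 were lowest in library 1 of both groups and 0 were highest there. Ryr2, Cacna1c and Itpr1 are examples, and Itpr1 was at 3.87 FPKM in Hand2 cKO 1 and 3.73 FPKM in control 1, with 5.36 to 6.00 FPKM in the other 4. Of the 10 shorter members, 1 was lowest and 4 were highest in library 1 of both groups. The 1 that was lowest was Slc8a1, whose recovered length of 2934 bases, as for 13 members in all, is not that of the reference annotation. The annotation gives Slc8a1 18807 exonic bases. The recovered length may therefore be too short, and by its annotated length Slc8a1 would count among the members over 4000 bases. Over all genes tested, 54.3% of those over 4000 bases were lowest in library 1 of both groups, as were 13.8% of the shorter ones, and 15.5% of those over 4000 bases and 49.5% of the shorter ones were highest there. The part of length in the differences between groups was not tested.

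Related genes outside the member list were examined as well. Of 128 genes listed from the same pathways, 66 were tested, and limma called none without the block (7 were lower and 5 higher before adjustment, p under 0.05, where 4.32% and 2.6% of all genes were). With it 7 fell and 0 rose, where 3.7% of all genes were called lower and 1.42% higher. Without both libraries numbered 1, 2 or 3 the block called 5, 1 and 4 lower. Over all genes those fits called 246 of 12665, 229 of 12635 and 210 of 12632 lower. By class, 2 of 20 store and release genes fell, 1 of 15 calcium channel and membrane transport genes, 2 of 12 sodium channel, sodium pump and pacemaker channel genes, 1 of 12 potassium channel genes and 1 of 7 gap junction genes. The medians of their log2 fold changes were -0.11, 0.07, -0.04, 0.00 and -0.07 in that order.

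Among store and release genes, Camk2a, a calmodulin-dependent kinase gene best known from brain, was at 5.31, 4.41 and 6.13 FPKM in Hand2 cKO libraries 1 to 3, against 7.65, 8.57 and 10.7 FPKM in control libraries 1 to 3. Fkbp1a, whose product binds ryanodine receptors, averaged 137 ± 9.95 FPKM in Hand2 cKO and 174 ± 21.7 FPKM in controls (SD, n = 3 each). Both fell with the block (limma adjusted p = 0.0146, with 0.000367 to 0.938 over the alternatives, and 0.0359, with 0.00531 to 1.00). Stim1, a sensor of store calcium, averaged 5.43 ± 0.586 FPKM in Hand2 cKO and 6.83 ± 0.350 FPKM in controls, and Tmem38b, the relative of Tmem38a, averaged 4.03 ± 0.351 FPKM in Hand2 cKO and 5.03 ± 0.408 FPKM in controls. Neither passed in the limma fits on FPKM, but both voom fits with the block called both lower, as did array weights for Tmem38b (limma adjusted p over the alternatives 0.031 to 1.00 for Stim1 and 0.041 to 1.00 for Tmem38b).

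Hcn4, the pacemaker channel gene, was at 6.23, 4.79 and 6.21 FPKM in Hand2 cKO libraries 1 to 3, against 11.2, 10.4 and 14.6 FPKM in control libraries 1 to 3, and fell with the block (limma adjusted p = 0.00538, with 6.56e-05 to 0.461 over the alternatives). Cacna1d, the L-type pore of pacemaker cells, averaged 2.47 ± 0.882 FPKM in Hand2 cKO and 4.02 ± 1.39 FPKM in controls. Kcnip3, of the same family as Kcnip2, averaged 3.01 ± 0.355 FPKM in Hand2 cKO and 4.91 ± 0.770 FPKM in controls. The connexin gene Gja5 of atrium, conduction system and arterial endothelium averaged 5.66 ± 0.655 FPKM in Hand2 cKO and 8.09 ± 0.778 FPKM in controls (SD, n = 3 each). These 3 fell with the block as well. The limma adjusted p with the block was 0.0201 for Cacna1d (0.000419 to 1.00 over the alternatives), 0.0143 for Kcnip3 (0.00159 to 1.00) and 0.0314 for Gja5 (0.00328 to 1.00).

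Some other channel genes had higher means in Hand2 cKO but passed in neither limma fit on FPKM, with or without the block. The T-type pore gene Cacna1g averaged 2.80 ± 0.517 FPKM in Hand2 cKO and 2.01 ± 0.0751 FPKM in controls, and the sodium channel beta subunit gene Scn2b averaged 2.14 ± 0.260 FPKM in Hand2 cKO and 1.59 ± 0.0383 FPKM in controls. Cacng7 averaged 15.6 ± 0.147 FPKM in Hand2 cKO and 12.8 ± 1.14 FPKM in controls. Kcna5, Kcnk5 and Kcnn1 averaged 5.18, 5.57 and 1.37 FPKM in Hand2 cKO and 4.24, 4.70 and 1.03 FPKM in controls. The groups did not overlap for any of these 6, which were named for their small p. All Hand2 cKO values lay above all control values in 5.44% of all genes tested. In both voom fits with the block Cacna1g, Cacng7 and Scn2b were called higher, Cacng7 also with array weights, and over all alternatives the limma adjusted p was 0.0105 to 1.00 for Cacna1g, 0.0341 to 1.00 for Cacng7 and 0.0423 to 1.00 for Scn2b. Kcna5, Kcnk5 and Kcnn1 were called in no alternative. Fxyd5, Panx1 and Gja4 averaged 1.23, 16.5 and 23.8 FPKM in Hand2 cKO and 1.83, 15.2 and 28.2 FPKM in controls, with overlapping groups and no call by limma on FPKM. Both voom fits with the block called Fxyd5 and Gja4 lower (limma adjusted p over the alternatives 0.0281 to 1.00 for Fxyd5 and 0.0442 to 1.00 for Gja4), and Panx1 was called in no alternative.

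Whether the counting used strand is not stated, and a gene's reads cannot then be told apart from those of a gene that overlaps it on the other strand. In the reference annotation 13 of the 35 members share exonic bases with such a gene. For Pln, which has 2759 exonic bases there, these are 1644 bases with Gm47644 and 141 with Cep85l. Cep85l was at 1.73 FPKM in Hand2 cKO and 2.00 FPKM in controls, and Gm47644 had no FPKM values in these data. For Casq1 they are 156 bases with Gm17224 (0.261 FPKM in Hand2 cKO and 0.363 FPKM in controls), for Atp1b1 575 with Nme7 (4.21 FPKM in Hand2 cKO and 4.20 FPKM in controls), and for Cacna2d2 82 with Gm17141 (0.0040 FPKM in Hand2 cKO and 0.0073 FPKM in controls).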

How the data were processed

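Pooled tissue of 3 Hand2 cKO and 3 control pools was sequenced from NEBNext Ultra libraries (kit per the labels' protocols). The authors deposited FPKM values, 1 column for each of the 6 libraries. Tools named in the submitters' processing notes are bcl2fastq 2.18 and STAR 2.5.1b as well as Cufflinks 2.2.1, with mm8 as the build; annotation, strand and filters are not stated there. Symbols were looked up in a reference name table, where 129 IDs found none.

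Each gene's FPKM steps gave whole reads within 0.001, except for 16 genes. The lengths that went with them equalled GENCODE M21 exon unions (GRCm38) for 20312 of 25888 genes and 22 of the 35 members, so coordinates are on GRCm38 although mm8 is listed. Elsewhere the length was chosen to make reads whole, which is no check, and the reads may lack a common factor. Limits for a 0 cover counting error only.

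Tests used limma 3.58.1 (R 4.3.3) with a trended prior on log2(FPKM + 1), two-sided, for 12650 genes with mean FPKM of at least 1, with Benjamini-Hochberg adjustment at 0.05. The scale understates changes of low genes. Where 2 SEs stand together, the first is without and the second with the replicate block. Deviations from group means correlated at 0.73, 0.44 and 0.44 between libraries of numbers 1, 2 and 3. The numbers were therefore taken as pairs, a pairing read from the data. Hand2 cKO 3 also correlated at 0.31 with control 2. Deviations within a group cancel out, so a shared effect in the libraries numbered 1 also raises the correlations between those numbered 2 and 3. voom took the FPKM denominators as library sizes.

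The members, lists and tests were chosen with earlier results of these data known. The rule gave library values for tested members that passed with or without the block or had an unadjusted p under 0.05 and means or ranges for the others; some of those have library values too, added after they were seen. From each related list it named up to 4 genes with the smallest p and any that passed; Cacna2d1 was among them, and some genes so named are not reported here.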

Additional observations from a re-analysis of the deposited data

How the results depend on the processing

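Without the block, 0 of the 24 tested members were called in either direction under every alternative without a block except array weights: pseudocounts of 0.1 and 0.5, no filter, a mean FPKM of at least 5, quantile normalization, rescaling without red cell and mitochondrial genes, voom, and leaving out any 1 library. Members called lower numbered 8 with the replicate block, 5 with array weights, 13 with voom and the block, 16 with voom on genes with at least 20 reads, and 6, 2 and 4 with the block but without both libraries numbered 1, 2 and 3. The 2 left without number 2 were Casq1 and Pln, which were called lower in all of these fits. Members called higher numbered 1 in each of the fits with a block. Over all genes, the 19 lower and 3 higher became 468 and 180 with the block, 349 and 193 with array weights, 848 and 446 with voom and the block, 927 and 526 in the added fit, and 246 and 94, 229 and 54, and 210 and 80 without both libraries of a number. No filter gave 3 and 5, a mean FPKM of at least 5 gave 11 lower and rescaling gave 9 lower. Leaving out any 1 library gave 0 to 2 lower and 0 to 2 higher, with 0 and 0 without Hand2 cKO replicate 2. Related pathway genes called lower numbered 0, and 7 with the block, 6 with array weights, 16 and 18 in the 2 voom fits with the block, and 5, 1 and 4 without both libraries of a number; those called higher numbered 1 with array weights and 5 and 8 in the voom fits with the block. The cause of these differences was not tested. Hand2 (log2 fold change -1.78) did not pass in the main fit without the block (limma adjusted p = 0.109). It passed in 8 of 20 alternatives. Among these were the block (same value), voom with the block (-1.82 in both fits), rescaling (-1.72) and array weights (-1.76). The rest were the block without both libraries numbered 1, 2 or 3 (-1.81, -1.92 and -1.60).

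Some members that passed in no fit changed sign, with these log2 fold changes. Atp2a2 was at 0.034 without control replicate 3 (-0.24 to 0.034 over single libraries left out). Kcnh2 was at 0.0071 with rescaling and 0.0095 with the block without number 3 (-0.15 to 0.021 over single libraries left out). Asph was at -0.00074 with array weights. Kcnj5 was at -0.20 with array weights (-0.071 to 0.24 over single libraries left out). Fkbp1b was at -0.031 with array weights and -0.10 with the block without number 3 (-0.078 to 0.17 over single libraries left out). Itpr1 was at -0.0010 with array weights and -0.026 with the block without number 3 (-0.13 to 0.18 over single libraries left out). No other tested member changed sign. Members with few reads, such as Sln and Kcnd2, are limited by depth.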
